A study of Homo sapiens with 4 samples.

Results

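The genes of the G2 phase, mitosis and cytokinesis were followed in 2 cell lines of human mantle cell lymphoma (MCL), REC-1 and Z138, with and without CC-292. CC-292 blocks BTK, the kinase that relays signals of the B-cell receptor. The 52 genes were chosen by name for their roles in this stage of the cell cycle, with earlier results of these data known. Of these, 51 had at least 1 probe set that the probe table assigns to a single symbol, out of 18239 genes so represented on the array, and they had 130 such probe sets in all. PTTG1, which encodes the separase inhibitor securin, had only probe sets shared with its copies PTTG2 and PTTG3P and has no value here. All 51 genes reached the brightness minimum used for gene results (log2 4.63) on all 4 arrays, so none was kept through 1 group alone, and their lowest value was 6.56.

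A cell enters mitosis when cyclin B and CDK1 form an active kinase, which CDC25 phosphatases switch on and WEE1 and PKMYT1 hold back. Aurora and Polo kinases, kinesins and microtubule proteins build the spindle, kinetochores tie it to the chromosomes, and the checkpoint kinases hold anaphase until every chromosome is attached. CDC20 and the anaphase-promoting complex then destroy cyclin B and securin, and the midzone proteins split the cell. Most of these genes are transcribed periodically, held down in quiescent cells by the DREAM complex and switched on in G2 by MYBL2 and FOXM1, so that their RNA in a bulk culture is a common measure of proliferation.

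The groups, of 1 array each, were REC-1 with CC-292, REC-1 control, Z138 with CC-292 and Z138 control. Both lines are established from MCL, a B-cell malignancy with cyclin D1 overexpression, and the labels give no genotype or NF-kB mutational status for either, which the name of the study links to the drug's combinations. Exposure was 48 h, at 1 uM per the treatment protocol but 1 mM per the titles of the treated arrays, and no time is given in the name of the Z138 control. No label says what the controls received or whether the cultures of the lines were grown side by side. The values are log2 signals of Affymetrix probe sets, in which a difference of 1 is 2-fold, and a gene is represented by its brightest probe set. Across probe sets, r between CC-292 and control was 0.987 in REC-1 and 0.991 in Z138. The 3' minus 5' difference of the ACTB control probe sets, a sign of RNA integrity, was 0.53 on the CC-292 and 0.77 on the control array of REC-1, and 1.11 and 1.12 on the CC-292 and control arrays of Z138. That of GAPDH was -0.31 on the CC-292 and -0.32 on the control array of REC-1, and -0.24 and -0.28 on the CC-292 and control arrays of Z138, and so hardly differed. The part of RNA integrity in the results below was not tested. Of 8 measured B-cell and MCL markers 7 reached the minimum on all arrays, CD37 being under it on the Z138 CC-292 array. Of 20 measured T, NK, myeloid and erythroid markers 16 reached it on none, and HBB alone did on all 4. Their linear signals summed to 284 on the CC-292 and 285 on the control array of REC-1, and to 327 and 344 on the CC-292 and control arrays of Z138, and their part in the results was not tested.

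Much of the periodic control of these genes is known to run through short promoter elements, the cell cycle genes homology region (CHR), bound by the MuvB core of the DREAM complex, and CCAAT boxes, bound by NF-Y. RefSeq promoter windows (GRCh38.p14, 250 bases before to 50 after the gene start) were matched by symbol for 44 of the 52 genes. TTTGAA or TTCGAA, the letters searched for the CHR on both strands, stood in 32 of 44 windows (72.7%), against 16.6% of all 27305 promoter windows of this length. CCAAT, on either strand, also stood in 32 (72.7%), against 35.7% of all windows, and 26 windows (59.1%) held both kinds, against 6.58%. Matches could overlap each other, as a CCAAT and an ATTGG do in HMMR. The 32 genes with CHR letters had a median REC-1 difference (CC-292 minus control) of -0.29 and the 11 measured genes without them in the window one of -0.29, so the medians did not differ at this precision. The windows below belong to genes that the results turn on, namely HMMR for its low REC-1 value, BUB1, CCNB2 and MYBL2 for their differences between the lines, and CDC20 for its opposite signs. They are printed 5' to 3' on the strand of the gene, with every match to either element, on either strand, in capitals.
HMMR, chr5:163460382-163460681, plus strand: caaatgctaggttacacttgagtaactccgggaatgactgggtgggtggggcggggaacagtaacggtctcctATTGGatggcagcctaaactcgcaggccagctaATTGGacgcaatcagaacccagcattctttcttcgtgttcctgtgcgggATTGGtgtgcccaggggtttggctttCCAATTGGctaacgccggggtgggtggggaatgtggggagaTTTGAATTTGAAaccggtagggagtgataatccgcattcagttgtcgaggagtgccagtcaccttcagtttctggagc
BUB1, chr2:110678014-110678313, minus strand: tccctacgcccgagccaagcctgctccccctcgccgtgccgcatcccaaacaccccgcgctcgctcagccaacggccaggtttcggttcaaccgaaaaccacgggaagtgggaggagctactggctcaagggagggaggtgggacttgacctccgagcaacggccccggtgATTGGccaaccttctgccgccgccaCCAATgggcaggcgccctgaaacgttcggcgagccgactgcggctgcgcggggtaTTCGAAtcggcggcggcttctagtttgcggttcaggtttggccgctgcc
CCNB2, chr15:59104896-59105195, plus strand: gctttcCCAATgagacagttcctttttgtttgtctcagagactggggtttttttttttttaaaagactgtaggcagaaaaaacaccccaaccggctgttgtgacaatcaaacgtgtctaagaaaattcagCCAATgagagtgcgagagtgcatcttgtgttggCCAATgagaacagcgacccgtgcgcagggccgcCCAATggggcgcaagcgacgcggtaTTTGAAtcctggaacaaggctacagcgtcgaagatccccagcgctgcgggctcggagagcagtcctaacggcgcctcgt
CDC20, chr1:43358731-43359030, plus strand: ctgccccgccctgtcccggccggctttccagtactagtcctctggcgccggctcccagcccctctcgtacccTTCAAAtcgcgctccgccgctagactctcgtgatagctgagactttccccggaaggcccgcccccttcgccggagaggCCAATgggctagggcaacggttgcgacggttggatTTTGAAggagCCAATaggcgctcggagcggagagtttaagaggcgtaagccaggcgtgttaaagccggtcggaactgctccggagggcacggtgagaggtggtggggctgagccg
MYBL2, chr20:43666864-43667163, plus strand: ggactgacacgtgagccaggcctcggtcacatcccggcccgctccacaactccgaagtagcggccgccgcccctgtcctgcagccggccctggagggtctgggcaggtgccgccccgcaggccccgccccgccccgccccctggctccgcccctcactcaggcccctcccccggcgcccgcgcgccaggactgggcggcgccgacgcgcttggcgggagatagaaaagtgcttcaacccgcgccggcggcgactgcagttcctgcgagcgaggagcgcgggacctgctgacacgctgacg
HMMR carries a pair of adjacent TTTGAA matches that begin 28 and 22 bases before the start, and CCNB2 has 1 that begins 29 bases before it, with 4 CCAAT boxes upstream. BUB1 has TTCGAA at base 2 of the transcript. The MYBL2 window held neither element, which says only that these letters are not in it.

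The first question was what differed after CC-292 within each line. On the REC-1 CC-292 array nearly all of the genes were slightly lower than on the control array, from the cyclin-dependent kinase through the spindle checkpoint to cytokinesis. In Z138 the same genes lay on both sides of 0. In REC-1, 47 of 51 genes were below 0, where 57.8% of all 10823 kept genes were, and their median difference was -0.29 against -0.05 over all genes. In Z138, 20 of 51 were below 0, against 48.1% of all genes, with a median of 0.03 against 0.01. With 1 array per group these differences have no test. In bulk RNA, fewer cells in G2 and mitosis and less of these RNAs per cell cannot be told apart.

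The differences were small in size. At least 1.2-fold lower in REC-1 were 29 of 51 genes, against a background of 22.2%, and 1 gene, SPC25, was at least 1.5-fold lower, against 4.73%. No gene was at least 1.2-fold higher in REC-1, against 15.4%. In Z138 no gene was at least 1.2-fold lower and 2 were at least 1.2-fold higher, ECT2 and KIF15, where 12.2% of all genes were in either direction. The count in REC-1 was 19 of 51 with cyclic loess normalization and 16 when the probe sets of a gene were averaged. The share of all genes was not counted under these settings, so the 19 and 16 have no background. Across both lines, 18 of 51 genes were below 0 in both, against 26.5% of all genes, and 29 of 51 were below 0 in REC-1 but above 0 in Z138, against 31.4%. FOXM1 and PLK1 were above 0 in both, and CDC25B and KIF18A above 0 in REC-1 but below 0 in Z138.

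**Figure D1:**
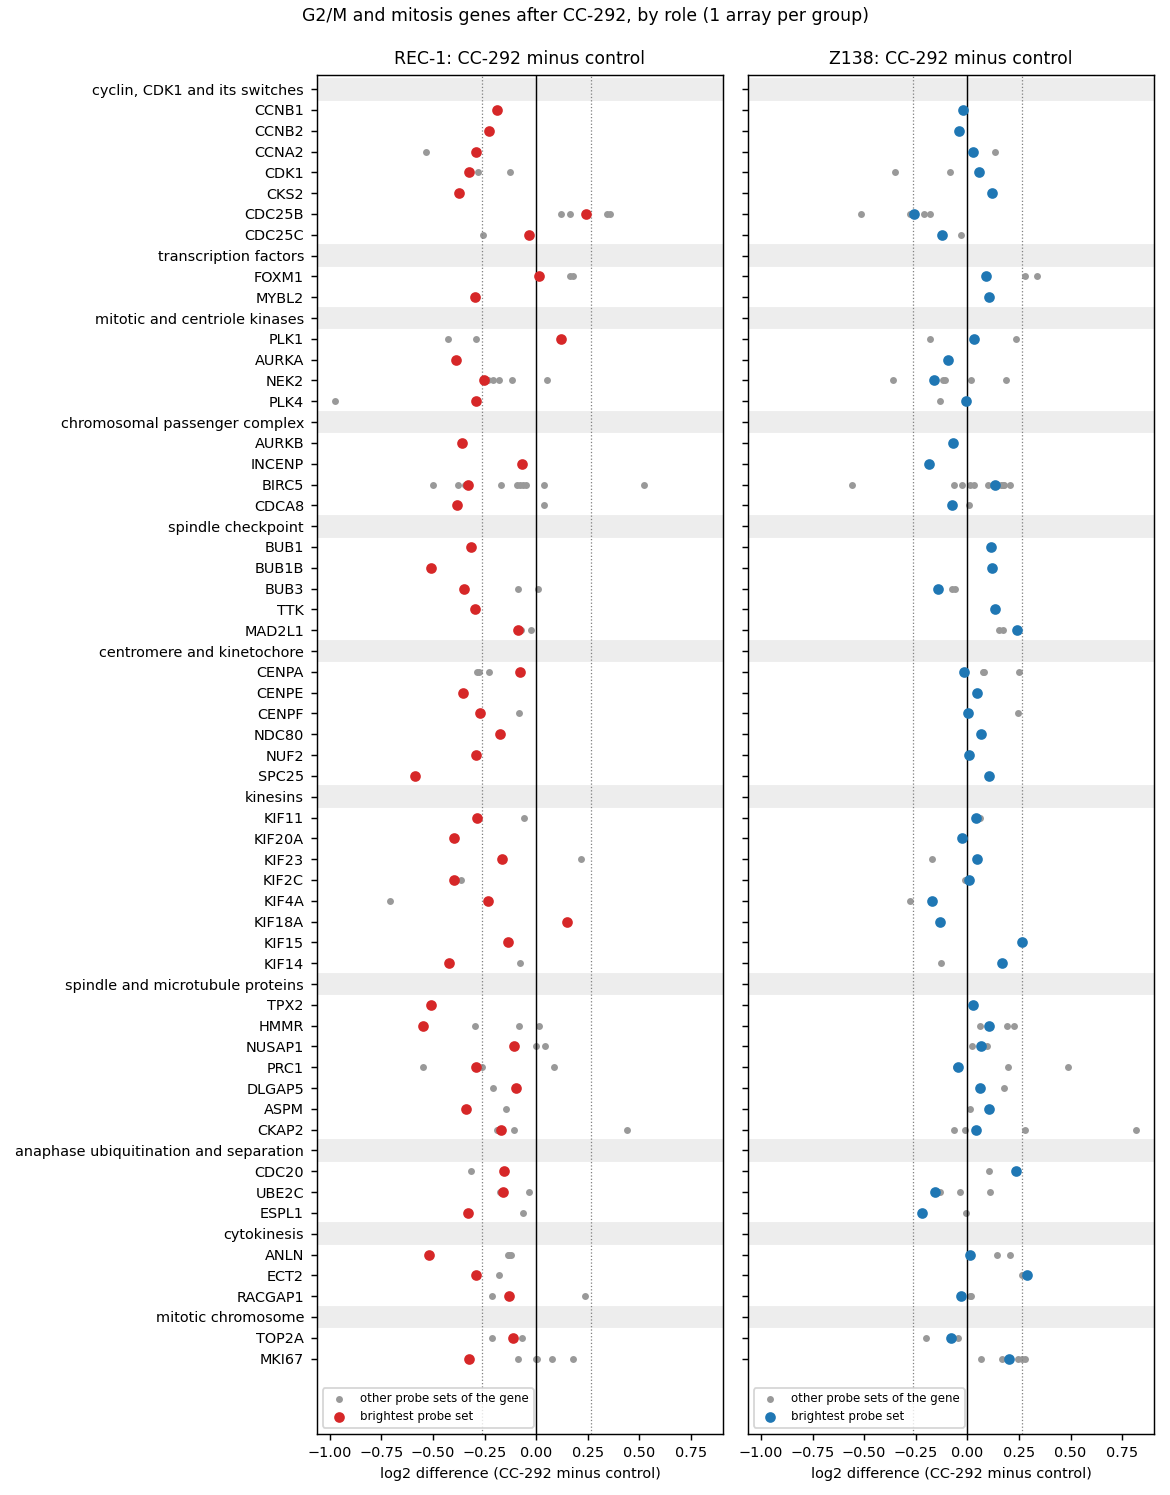
Log2 difference (CC-292 minus control) of the 51 genes in REC-1 (left) and Z138 (right), grouped by role. Large points are the brightest probe set of a gene, grey points its other probe sets that reach the brightness minimum, and dotted lines mark 1.2-fold. In REC-1, 47 of 51 large points lie left of 0, in Z138 20 of 51.

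Among the cyclins and CDK1, the mitotic kinase itself, CDK1 had 10.64 on the CC-292 and 10.96 on the control array of REC-1, and 10.76 on the CC-292 and 10.70 on the control array of Z138. The REC-1 CC-292 array was thus the lowest of the 4, at -0.33 (SD 0.10 over 3 probe sets), while Z138 differed by 0.06, or by -0.13 as the mean of the 3. Its small cofactor CKS2 was at -0.37 in REC-1 and 0.12 in Z138. CCNA2, which encodes the cyclin of S phase to early mitosis, had 9.78 on the CC-292 and 10.07 on the control array of REC-1, against 9.50 on CC-292 and 9.47 on control in Z138. The arrays of Z138 were the lower ones here, and the REC-1 difference was -0.29 (SD 0.17 over 2 probe sets). The cyclin B genes differed less: CCNB1 had 9.73 on the CC-292 and 9.92 on the control array of REC-1, against 9.67 on CC-292 and 9.69 on control in Z138, and CCNB2 was at -0.23 in REC-1 and -0.04 in Z138. For a gene with 1 probe set, such as both cyclin B genes, the spread is known only from other genes, whose probe sets had a pooled SD of 0.31 for the REC-1 difference and 0.25 for the Z138 difference. The phosphatase gene CDC25C had 7.87 on the CC-292 and 7.90 on the control array of REC-1, against 7.42 on CC-292 and 7.54 on control in Z138, so that its differences were within that spread.

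CDC25B, the phosphatase gene thought to start CDK1 activation at the centrosome, ran the other way. It had 10.85 on the CC-292 and 10.61 on the control array of REC-1, and 9.05 on the CC-292 and 9.31 on the control array of Z138. The difference was 0.24 (SD 0.11 over 5 probe sets) in REC-1 and -0.26 (SD 0.13 over 5 probe sets) in Z138, and all 5 probe sets had these signs. Of the 33 genes with several probe sets that reach the minimum, it alone had all of those above 0 in REC-1 and below 0 in Z138, and 9 genes had the opposite pattern on all of theirs (CCNA2, MAD2L1, CENPF, KIF11, DLGAP5, ASPM, CDC20, ANLN and ECT2). How often either pattern occurs over all genes with several probe sets was not counted.

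The transcription factor genes split. MYBL2, which encodes B-MYB, the factor that joins MuvB in S phase, had 10.40 on the CC-292 and 10.70 on the control array of REC-1, against 9.41 on CC-292 and 9.31 on control in Z138. Its differences were -0.30 in REC-1 and 0.10 in Z138. FOXM1, the forkhead factor that acts with it in G2, had 6.58 on the CC-292 and 6.56 on the control array of REC-1, and 7.89 on the CC-292 and 7.81 on the control array of Z138. All 3 of its probe sets were above 0 in both lines, with a mean of 0.12 in REC-1 and 0.24 in Z138.

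The kinases of mitosis were lower in REC-1 except PLK1. AURKA, which matures the centrosome, had 9.40 on the CC-292 and 9.79 on the control array of REC-1, against 9.36 on CC-292 and 9.46 on control in Z138. The centriole duplication kinase gene PLK4 was at -0.29 in REC-1, with a second probe set at -0.97, and at -0.01 in Z138. NEK2, a kinase gene of centrosome separation, had 8.40 on the CC-292 and 8.65 on the control array of REC-1, against 8.96 on CC-292 and 9.12 on control in Z138. Its difference was -0.25 (SD 0.11 over 6 probe sets) in REC-1 and -0.16 (SD 0.18 over 6 probe sets) in Z138. PLK1, the Polo kinase gene of mitotic entry and cytokinesis, had 7.004 on the CC-292 and 6.89 on the control array of REC-1, against 6.63 on CC-292 and 6.60 on control in Z138. In REC-1 its brightest probe set was at 0.12 but the other 2 at -0.29 and -0.43, so that its direction depends on the probe set.

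In the chromosomal passenger complex, which corrects faulty attachments, 3 of 4 genes were at least 1.2-fold lower in REC-1 on their brightest probe set, against 22.2% of all genes. AURKB, its kinase, had 9.37 on the CC-292 and 9.73 on the control array of REC-1, and 9.18 on the CC-292 and 9.25 on the control array of Z138. The borealin gene CDCA8 had 8.88 on the CC-292 and 9.26 on the control array of REC-1, against 8.43 on CC-292 and 8.51 on control in Z138. Its REC-1 difference was -0.38, but 0.04 on its second probe set. BIRC5, which encodes survivin, had 9.18 on the CC-292 and 9.51 on the control array of REC-1, against 9.83 on CC-292 and 9.69 on control in Z138. Over its 11 probe sets the REC-1 mean was -0.13 (SD 0.27), a spread larger than the difference. The scaffold gene INCENP had 7.05 on the CC-292 and 7.12 on the control array of REC-1, against 7.11 on CC-292 and 7.29 on control in Z138, the only gene of the complex with the larger difference in Z138.

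All 5 spindle checkpoint genes were below 0 in REC-1 (median -0.31), and 4 of them above 0 in Z138 (median 0.12). BUB1B, which encodes BUBR1, had 9.03 on the CC-292 and 9.54 on the control array of REC-1, and 9.36 on the CC-292 and 9.24 on the control array of Z138. The 1.42-fold lower REC-1 value was the lowest of the 4 arrays. BUB1 was at -0.31, the MPS1 kinase gene TTK at -0.30, and BUB3 at -0.35 (mean -0.14 over 3 probe sets) in REC-1. MAD2L1, which encodes the MAD2 inhibitor of CDC20, had 9.91 on the CC-292 and 10 on the control array of REC-1, against 10.08 on CC-292 and 9.84 on control in Z138. Its difference of 0.24 in Z138 held over its 3 probe sets (SD 0.05).

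Of the 6 centromere and kinetochore genes all were below 0 in REC-1, with a median of -0.28, against 0.03 in Z138. SPC25, a subunit of the NDC80 complex that binds microtubules, had 7.24 on the CC-292 and 7.83 on the control array of REC-1, and 8.54 on the CC-292 and 8.43 on the control array of Z138. At -0.59 it had the largest REC-1 difference of the 51 genes, on 1 probe set. Its partner gene NUF2 had 7.77 on the CC-292 and 8.06 on the control array of REC-1, and 8.72 on both arrays of Z138. The third partner, NDC80, had 8.68 on the CC-292 and 8.86 on the control array of REC-1, against 8.10 on CC-292 and 8.04 on control in Z138. Both were thus lower in REC-1 by less than SPC25. CENPE, a kinetochore motor gene, had 8.56 on the CC-292 and 8.91 on the control array of REC-1, against 8.74 on CC-292 and 8.69 on control in Z138. CENPF, which encodes a large protein of the outer kinetochore, had 9.53 on the CC-292 and 9.81 on the control array of REC-1, against 10.48 on CC-292 and 10.47 on control in Z138. CENPA, the centromeric histone gene, was at -0.08 on its brightest probe set and at -0.22 as the mean of 4.

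The kinesin genes had a median of -0.26 in REC-1 and 0.02 in Z138. KIF14, a midbody motor gene, had 8.02 on the CC-292 and 8.44 on the control array of REC-1, against 8.45 on CC-292 and 8.28 on control in Z138. Its second probe set was at -0.08 in REC-1 and -0.13 in Z138, so that the sign in Z138 depends on the probe set. KIF2C, the microtubule depolymerase gene, was at -0.40 in REC-1, with the same direction and nearly the same size on its second probe set (SD 0.02), and at 0.01 in Z138. The midzone motor gene KIF20A was at -0.40 and the bipolar spindle motor gene KIF11 at -0.28 in REC-1. The chromokinesin gene KIF4A had 7.66 on the CC-292 and 7.89 on the control array of REC-1, against 7.37 on CC-292 and 7.54 on control in Z138. KIF23, a midzone motor gene, had 7.88 on the CC-292 and 8.05 on the control array of REC-1, against 8.68 on CC-292 and 8.64 on control in Z138, and the mean REC-1 difference over its 2 probe sets was 0.03. KIF18A, which dampens chromosome movements, had 8.14 on the CC-292 and 7.99 on the control array of REC-1, against 7.49 on CC-292 and 7.62 on control in Z138, and was alone among the kinesin genes above 0 in REC-1. KIF15, a second spindle motor gene, had 7.57 on the CC-292 and 7.71 on the control array of REC-1, against 8.53 on CC-292 and 8.26 on control in Z138, the widest Z138 difference among the kinesin genes.

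All 7 genes of spindle and microtubule proteins were below 0 in REC-1, and 6 above 0 in Z138. HMMR, which encodes a spindle-associated hyaluronan receptor, had 9.52 on the CC-292 and 10.08 on the control array of REC-1, and 10.39 on the CC-292 and 10.29 on the control array of Z138. Its brightest probe set was thus 1.46-fold lower in REC-1, but the mean of its 4 was -0.23 (SD 0.25). TPX2, the activator of Aurora A, had 9.40 on the CC-292 and 9.91 on the control array of REC-1, against 9.84 on CC-292 and 9.81 on control in Z138. The midzone bundler gene PRC1 had 8.88 on the CC-292 and 9.17 on the control array of REC-1, against 9.73 on CC-292 and 9.77 on control in Z138. The spindle pole gene ASPM was at -0.34 in REC-1. The smallest differences of this group in REC-1 were those of the microtubule-binding genes CKAP2 (-0.17), NUSAP1 (-0.11) and DLGAP5 (-0.10), with probe-set means of -0.04, -0.02 and -0.15.

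At the metaphase to anaphase step, CDC20, the activator of the anaphase-promoting complex, had 9.86 on the CC-292 and 10.02 on the control array of REC-1, and 9.43 on the CC-292 and 9.19 on the control array of Z138. The lines thus differed in sign, at -0.15 in REC-1 and 0.24 in Z138. UBE2C, which encodes the ubiquitin-conjugating enzyme of that complex, had 10.40 on the CC-292 and 10.56 on the control array of REC-1. In Z138 it had 10.52 on CC-292 and 10.68 on control, so that its brightest probe set differed by -0.16 in each line. Over its 4 probe sets the mean was -0.13 (SD 0.07) in REC-1 and -0.05 (SD 0.12) in Z138. The separase gene ESPL1 had 9.06 on the CC-292 and 9.39 on the control array of REC-1, against 8.98 on CC-292 and 9.19 on control in Z138. It was thus lower in both lines, but its second probe set was at only -0.06 in REC-1 and -0.01 in Z138. Among the cytokinesis genes, ANLN, which encodes the contractile ring protein anillin, had 7.93 on the CC-292 and 8.45 on the control array of REC-1, and 8.98 on the CC-292 and 8.96 on the control array of Z138. Its other 3 probe sets differed less, and the mean of all 4 was -0.23. ECT2, the RhoA exchange factor gene, had 7.88 on the CC-292 and 8.17 on the control array of REC-1, against 8.50 on CC-292 and 8.21 on control in Z138. The differences, -0.29 (SD 0.08 over 2 probe sets) in REC-1 and 0.29 (SD 0.02 over 2 probe sets) in Z138, mirrored each other. RACGAP1, which encodes a GTPase-activating protein of the midzone, had 8.02 on the CC-292 and 8.15 on the control array of REC-1, against 8.89 on CC-292 and 8.92 on control in Z138. TOP2A, which encodes the topoisomerase that untangles sister chromatids, had 10.92 on the CC-292 and 11.03 on the control array of REC-1, against 11.68 on CC-292 and 11.76 on control in Z138. Both of these genes differed little with CC-292 in either line.

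The difference of the 2 differences, REC-1 minus Z138, was below 0 in 46 of 51 genes, against 56.9% of all genes, with a median of -0.30. It was at least 1.5-fold in SPC25 (-0.69), HMMR (-0.65), BUB1B (-0.63) and KIF14 (-0.59), 4 of 51 genes (7.84%) against a background of 8.81%, and in the other direction it was so large in none, against 7.72%. Differences of this size were thus about as frequent among all kept genes, many of which are dimmer. Among the 6079 other kept genes in the brightness range of these genes they were rarer, at 4.49% lower and 3.19% higher. On the second probe set of KIF14 the sign turned, to 0.05, and the mean over the 4 probe sets of HMMR was -0.38. With 4 arrays this has no test. When the effect of CC-292 was averaged over both lines with limma (cell line as a block), 0 of 51 genes and 0 of 10823 genes passed an adjusted p of 0.05 in either direction, a background of 0% each way. At an unadjusted limma p under 0.05 it called 472 genes (4.36%), of which none was among the 51. Such calls were also rare in the brightness range of these genes, at 46 of the 6079 other kept genes. The average effect was below 0 in 45 of 51 genes, against 55% of all genes, and lay between ESPL1 at -0.27 (SE 0.16) and MAD2L1 at 0.08 (SE 0.17). The SE in this fit is moderated. It joins the difference between the lines in their response, with 1 degree of freedom, to a prior from all genes, with 4.50.

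**Figure D2:**
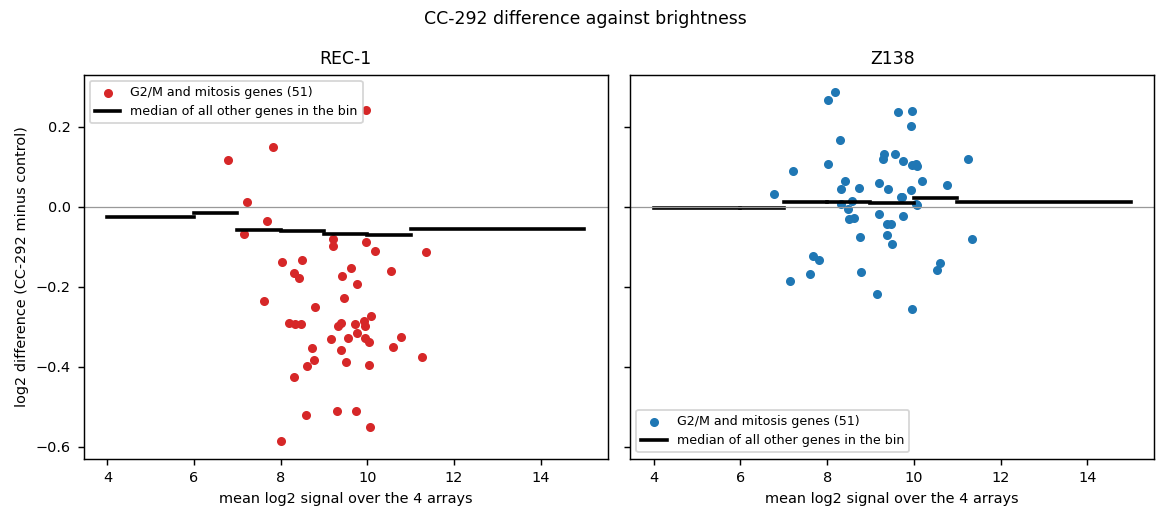
Log2 difference (CC-292 minus control) of the 51 genes against their mean log2 signal over the 4 arrays, in REC-1 (left) and Z138 (right). Black steps are the median of all other kept genes in each range of signal. In REC-1 the steps run from -0.02 to -0.07, and most points lie below them.

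The REC-1 difference of all genes varied with brightness, and these genes are bright. Of other genes with a mean signal of 9 to 10, 65.8% were below 0 in REC-1 (median -0.07), against 52.5% of those from 4 to 6 (median -0.03). In the same range of 9 to 10, 20 of 21 mitotic genes were below 0, with a median of -0.29. The plot against brightness shows that the 4 genes above 0 in REC-1 included PLK1, FOXM1 and KIF18A, which are among the 6 dimmest. Within genes, the brighter probe sets also differed more. For the 33 genes with more than 1 probe set at the minimum, the brightest probe sets had a REC-1 median of -0.27 and the 74 other probe sets one of -0.10, of which 54 were below 0. Probe sets of a gene had mixed signs in 12 of these 33 genes in REC-1 and in 13 in Z138, while 19 genes were below 0 on every probe set in REC-1 and 7 in Z138. The same counts were not made over all genes with several probe sets, so they have no background.

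The probe sets of MKI67, the gene of the Ki-67 proliferation marker that coats mitotic chromosomes, gave different directions. Its brightest probe set had 10.06 on the CC-292 and 10.39 on the control array of REC-1, and 9.76 on the CC-292 and 9.56 on the control array of Z138. Its other 5 probe sets differed in REC-1 by -0.09 to 0.18, with a mean over all 6 of -0.03 (SD 0.17). In Z138 all 6 probe sets were above 0 (mean 0.20, SD 0.08). The order of the lines also depended on the probe set. The REC-1 control was 0.83 above the Z138 control on the brightest probe set, but below it by 0.49 to 0.67 on 4 others.

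**Figure D3:**
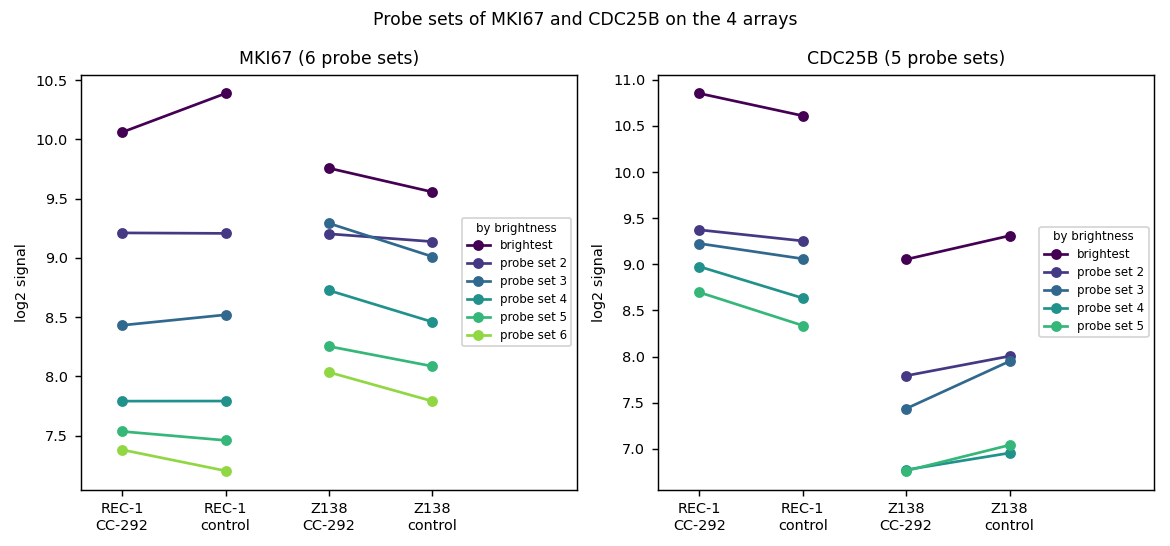
Log2 signal of each probe set of MKI67 (6, left) and CDC25B (5, right) on the 4 arrays. Lines join the CC-292 and control arrays of a cell line. All 5 CDC25B probe sets slope one way in REC-1 and the other way in Z138, and are higher in REC-1, whereas the brightest MKI67 probe set is the higher in REC-1 and 4 others are the higher in Z138.

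The second question was how the lines differ. Averaged over the CC-292 and control arrays, several mitotic genes were much lower in REC-1 than in Z138, led by BUB1, FOXM1, CKAP2 and CCNB2, while CDC25B and MYBL2 were higher. They were not shifted in 1 direction, since their median was -0.01, against 0.00 over all genes, and 26 of 51 were below 0, against 50% of all genes. In limma, with the agent as a block and 2 arrays per line, 14 genes were lower in REC-1 and 5 higher at an adjusted p under 0.05. Over all genes 23.1% were lower and 21.6% higher, so that 14 of 51 lower genes is a share near the background and 5 of 51 higher genes one below it. That second count ran from 3 without a brightness filter to 12 with an intensity trend in limma. At those settings it was not set against the share of all genes. The pair of arrays of a line are 1 treated and 1 control culture, not replicates of 1 condition.

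BUB1, a kinase gene of the spindle checkpoint, had 8.36 on the CC-292 and 8.67 on the control array of REC-1, and 11.04 on the CC-292 and 10.92 on the control array of Z138. Both REC-1 arrays were far below both Z138 arrays, a difference of -2.46 (SE 0.18, limma adjusted p = 0.000403) or 5.52-fold, on its only probe set. FOXM1 was lower in REC-1 by 2.43-fold (-1.28, SE 0.16, limma adjusted p = 0.00216), and its 3 probe sets gave -1.28 to -0.98. CKAP2, a spindle microtubule gene, had 8.69 on the CC-292 and 8.86 on the control array of REC-1, and 10.07 on the CC-292 and 10.03 on the control array of Z138. It was lower by 1.27 (SE 0.16, limma adjusted p = 0.00247), with the same direction on all 5 probe sets. CCNB2, the Golgi-associated B cyclin, had 8.82 on the CC-292 and 9.05 on the control array of REC-1, against 9.97 on CC-292 and 10.01 on control in Z138. That difference was -1.05 (SE 0.16, limma adjusted p = 0.00439), whereas CCNB1, its close relative, differed by 0.15 (SE 0.16, limma adjusted p = 0.50).

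Further genes that were lower in REC-1 at this threshold were the midzone genes RACGAP1 (-0.82), PRC1 (-0.72) and KIF23 (-0.70), the contractile ring gene ANLN (-0.78), the kinetochore genes SPC25 (-0.95), CENPF (-0.81) and NUF2 (-0.80), the kinesin gene KIF15 (-0.76), TOP2A (-0.75) and NEK2 (-0.52), with limma adjusted p between 0.00956 and 0.0434. The call of NEK2 was lost without a brightness filter (limma adjusted p = 0.0825) and when the probe set with the median difference was taken (limma adjusted p = 0.0669). ECT2, whose protein is recruited by the products of RACGAP1 and KIF23, did not pass (-0.33, SE 0.20, limma adjusted p = 0.237).

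Higher in REC-1 was CDC25B, with a difference of 1.55 (SE 0.19, limma adjusted p = 0.00213) or 2.93-fold, and 1.41 to 1.94 over its 5 probe sets. MYBL2 was higher by 1.19 (SE 0.18, limma adjusted p = 0.00416), opposite in direction to FOXM1. NDC80 was higher by 0.70, although its partners NUF2 and SPC25 in the same complex were lower. CDC20 (0.63) and CDCA8 (0.60) also passed, with limma adjusted p of 0.0335 and 0.0346. Without a brightness filter their limma adjusted p was 0.0548 and 0.0599, and that of CDC20 was 0.0749 when its probe sets were averaged.

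**Figure D4:**
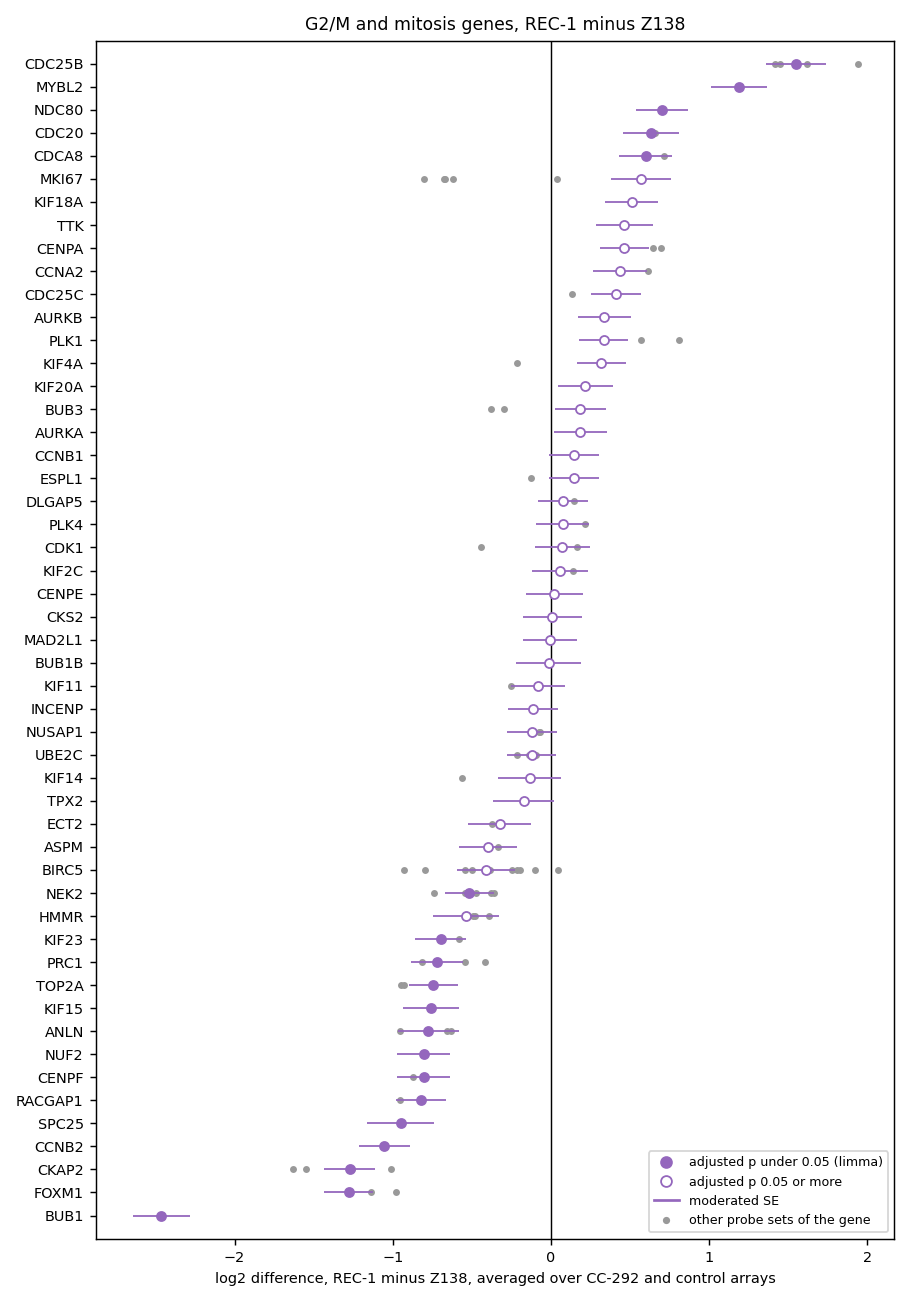
Log2 difference REC-1 minus Z138 of the 51 genes, averaged over the CC-292 and control arrays, in order of size. Bars are the moderated SE of limma, filled points have an adjusted p under 0.05, and grey points are other probe sets. BUB1 lies alone at -2.46 and CDC25B and MYBL2 lead the genes higher in REC-1.

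Genes that did not pass between the lines included the core of the mitotic kinase, CDK1 (0.07, SE 0.18), CKS2 (0.01, SE 0.19) and CCNB1, as well as AURKA (0.18, SE 0.17), PLK1 (0.33, SE 0.16), BUB1B (-0.01, SE 0.21), MAD2L1 (-0.01, SE 0.17), TPX2 (-0.17, SE 0.19) and UBE2C (-0.12, SE 0.16). Within the control arrays alone, 11 of 51 genes were at least 1.5-fold lower in REC-1, against 21.7% of all genes, and 8 at least 1.5-fold higher, against 22.2%.

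Other genes of the same machinery, listed by complex, gave medians nearer to 0 in REC-1. Of 106 such genes measured, 83 were below 0 in REC-1 (median -0.18), against 57.8% of all genes, and 38 were at least 1.2-fold lower, against 22.2%. In Z138, 42 were below 0 (median 0.03), against 48.1%. Between the lines, limma called 26 of the 106 lower in REC-1, near the 23.1% of all genes, and 13 higher, a share below the 21.6% of all genes. Kinetochore and centromere genes were below 0 in 25 of 29 cases (median -0.20), with CENPQ at -0.78, CENPO at -0.73 and ZWILCH at -0.54 (SD 0.19 over 4 probe sets). Spindle and cytokinesis genes were below 0 in 17 of 20 (median -0.22), among them CDCA3 at -0.91, GTSE1, a G2 regulator of p53, at -0.59 (SD 0.10 over 3 probe sets) and FAM83D at -0.54. Condensin and cohesin genes were below 0 in 17 of 20 (median -0.17), with the condensin II gene NCAPH2 at -0.68, the cohesin protector gene SGO2 at -0.57 (mean -0.16 over 3 probe sets) and NCAPH at -0.50, whose 3 probe sets had a mean of 0.17. The list of the anaphase-promoting complex holds its subunits, not known to be periodic as a group, and the regulator genes UBE2S, FZR1 and FBXO5. Its median was -0.02 with 10 of 17 genes below 0, a share near the 57.8% of all genes. The largest values in REC-1 were those of the E2 enzyme gene UBE2S at -0.51 and the activator gene FZR1 at -0.40. In Z138 the largest was that of the subunit gene ANAPC2 at -0.37. It rests on 1 dim probe set, with 4.90 on the CC-292 and 5.28 on the control array of Z138.

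The brakes of mitotic entry were also lower in 7 of 9 cases in REC-1 (median -0.23), against 57.8% of all genes. That count depends on the probe set. GADD45B was at -0.31 but had a mean of 0.27 over 4 probe sets, and CDKN1A was at -0.06 but had a mean of 0.21 over 2. The other genes of this list kept their sign as means. PKMYT1, the kinase that inhibits CDK1, had 7.24 on the CC-292 and 8.06 on the control array of REC-1, and 8.38 on the CC-292 and 8.37 on the control array of Z138, and the mean over its 6 probe sets was -0.54 (SD 0.23). CHEK1, the replication checkpoint kinase gene, was at -0.56 (SD 0.13 over 6 probe sets), and the phosphatase gene CDC14A at -0.33 in REC-1 and 0.35 in Z138. Of the DREAM and MuvB genes 7 of 11 were below 0 in REC-1 (median -0.13), a share near the 57.8% of all genes. The p130 gene RBL2, the pocket protein of DREAM in quiescent cells, had 6.85 on the CC-292 and 6.03 on the control array of REC-1, against 7.86 on CC-292 and 7.82 on control in Z138. This 0.82 was 0.43 as the mean of 4 probe sets (SD 0.60), a spread larger than the difference. The MuvB gene LIN52 was at -0.53 in REC-1 (mean -0.25 over 2 probe sets, SD 0.40) and 0.65 in Z138 (mean 0.27, SD 0.53), and LIN9, another, at -0.47 in REC-1 and -0.17 in Z138. The 30 listed genes of G1/S and DNA replication, the preceding stage of the cycle, were all below 0 in REC-1. Over all genes 57.8% were. Their REC-1 median of -0.34 lay further from 0 than the -0.29 of the 51 genes. At least 1.2-fold lower in REC-1 were 19 of them, against 22.2% of all genes. The difference of the 2 differences was below 0 in 29, against 56.9%. In Z138, 14 were below 0 (median 0.03), against 48.1% of all genes. In REC-1, CCNE1 was at -0.75, MCM10 at -0.68 (mean -0.22 over 3 probe sets) and CDC25A at -0.63. No gene of these lists passed limma for the average effect of CC-292.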

How the data were processed

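Biotin-labelled cRNA from 150 ng of total RNA of 4 cultures was hybridised to Affymetrix arrays, per the labels' protocols. The authors deposited 1 log2 signal per probe set and array, and the submitters' processing notes name RMA and Affymetrix Expression Console 1.1, with settings not given in sources used here. That the scale is log2 was read from the span of the values, 2.18 to 14.26. RMA commonly equalises the arrays, so a shift of most genes would not show.

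Of 49386 probe sets, 45259 had 1 symbol, 1327 several and 2800 none, and those with 1 were used. Through Entrez identifiers 45178 matched RefSeq (GRCh38.p14) with no symbol changed. A gene was its brightest probe set, and 10823 of 18239 genes had a highest value at or above log2 4.63, the median over all probe sets and arrays. Precision is limited by the number of arrays, 1 a group. SDs are over probe sets that reach the minimum and hold no error between cultures.

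Arrays were grouped by title. Average effects were tested by lmFit and eBayes of limma 3.58.1 (R 4.3.3), additive in line and agent, with 1 residual and 4.50 prior degrees of freedom and Benjamini-Hochberg adjustment over all genes. In simulated data of 10823 genes, 100 were given a 2-fold and 100 a 4-fold change with CC-292, and as many other genes such a line difference. The average CC-292 effect recovered 7 of the 2-fold set, 98 of the 4-fold set and 7 unchanged genes. The line difference recovered 10, 96 and 2. The simulated noise was independent and most genes had no line difference, whereas in these data 23.1% passed as lower and 21.6% as higher. The simulated recovery of line differences therefore does not carry over to these data. Python 3.11.15, pandas 2.3.3, numpy 2.4.6 and matplotlib 3.10.9 did the rest. Alternatives were the brightness filter (none, 70th percentile), median centring, quantile and cyclic loess normalization (the last added after the data were seen), the probe-set choice, an intensity trend, no block and an adjusted p threshold of 0.1.

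The genes, their roles and the related lists were chosen with earlier results of these data known. Values on every array or by name were given for genes fixed by name, the 6 lowest and 4 highest genes of each line's difference, the 4 highest and 4 lowest of the line difference, genes past the limma threshold, and up to 3 genes of each related list with the largest difference in either line. Other members are given to complete their role. The promoters to print were chosen after the values were seen.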

Additional observations from a re-analysis of the deposited data

Results flagged for a closer look

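Of the 51 genes, 6 differed by at least 1.1-fold in both lines with opposite signs (CC-292 minus control), where 18.1% of all kept genes did. With 1 array per group the difference between the lines was not tested. CDC25B was at 0.24 in REC-1 and -0.26 in Z138, and was the only one of the 6 that was higher in REC-1. ECT2 was at -0.29 in REC-1 and 0.29 in Z138. KIF14 was at -0.43 in REC-1 and 0.17 in Z138, but its second probe set was at -0.08 and -0.13, of the same sign in both lines. KIF15 was at -0.14 in REC-1 and 0.27 in Z138. CDC20 was at -0.15 in REC-1 and 0.24 in Z138. MKI67 was at -0.33 in REC-1 and 0.20 in Z138 on its brightest probe set, with a mean over 6 probe sets of -0.03 in REC-1 and 0.20 in Z138.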

How the results depend on the processing

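The limma fits already pair the arrays, by line or by agent. No block on replicate numbers could be added because each group holds 1 array and the labels give none, and for the same reason no array could be left out. The number of genes below 0 stayed within 1.5 times its value in every comparison under the alternatives run. In REC-1 the median of -0.29 was -0.20 when probe sets were averaged and -0.23 under cyclic loess, and the 29 genes at least 1.2-fold lower were 16 and 19. Shares of all genes at the fold thresholds were not counted under the alternatives. With cyclic loess or quantile normalization 1 gene was at least 1.2-fold higher in REC-1. In Z138, genes at least 1.2-fold higher were 0 with cyclic loess and 1 with quantile normalization, and 1 was at least 1.2-fold lower with those and with the mean of probe sets. The median of the difference of the differences was -0.21 with cyclic loess and -0.23 with quantile normalization, and genes at least 1.5-fold lower in it were 1 and 2, and 2 with the mean of probe sets. The median REC-1 control minus Z138 control of 0.16 turned to -0.0095 with the mean of probe sets. MKI67 turned with the probe set: its REC-1 difference was 0.0041 on the probe set with the median difference. Its control difference between lines was -0.25 as a mean. The probe set with the median of that control difference is another one, at -0.49. On the probe set at 0.0041 the control difference was 0.07. For the average line difference, the 5 genes higher in REC-1 were 3 with no filter, 8 with the mean of probe sets, 9 with no block, 11 at the 70th percentile, 11 at an adjusted p threshold of 0.1 and 12 with an intensity trend, while the 14 lower genes were 13 to 17. These counts were not set against the share of all genes under each setting. No alternative called any gene for the average CC-292 effect. The causes were not tested.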
